A study of Mus musculus with 20 samples.

Results

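The 10 libraries described here are the knockout libraries of a mouse RNA sequencing series of 20, 5 from striatum and 5 from hippocampus. All were titled Helios -/-, a full knockout in the strain C57BL/6, and they were chosen by those titles. The comparison asks which differences between striatum and hippocampus stand when Helios is missing from both tissues. The 10 wild-type libraries of the series, 5 from each tissue of the same strain, served only to show what each difference was with Helios present. The labels used here name neither an age nor a deleted exon, and none ties a library to an animal. The p-values therefore speak only of the spread among libraries of a group, which may be technical. Knockout striatum consisted of the libraries with replicate numbers 6 to 10, and knockout hippocampus of numbers 5 and 7 to 10. Values of single libraries are given in that order. The hippocampal library with number 10 carried a tissue tag of striatum but was titled and described as hippocampus. Its mean log2 levels of pallial and subpallial transcription factors lay within the range of the other hippocampal libraries.

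Helios is the protein of Ikzf2, one of the zinc finger transcription factors of the Ikaros family, which bind DNA and recruit chromatin remodelling complexes. It is known from regulatory T cells, and in brain from the developing striatum, where it marks spiny projection neurons of the indirect pathway. Striatum arises from the subpallium, whose progenitors express Dlx and Gsx factors and whose main output cells are inhibitory spiny projection neurons. Hippocampus arises from the medial pallium beside the cortical hem, a source of Wnt and Bmp signals and of Cajal-Retzius cells, and its principal neurons use glutamate.

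Expression was given as RPKM, reads scaled to the length of the gene and the depth of the library. Differences are means of log2(RPKM + 1) in striatum minus those in hippocampus, tested with limma, and they understate changes of genes with low levels. Genes with a p below 0.05 after Benjamini-Hochberg adjustment over all tested genes are named called, and those whose difference also reached 1 are named strongly called. The libraries held 16730843 to 36880080 recovered reads. Hippocampal knockout library 8 had the fewest, and its values depended on gene length. Spearman's rho across genes between the deviation of a library from its group median and gene length was -0.645 in this library, against -0.444 to 0.365 in the other knockout libraries. In library 8 the shortest 20% of genes lay 0.539 above the median of its group on the log2 scale and the longest 20% 0.61 below it. Among called genes of the shortest 20%, 190 were higher in knockout striatum and 395 in knockout hippocampus, against 554 and 300 in the longest 20%. Without library 8 those counts were 441 and 502 in the shortest 20%, and 805 and 633 in the longest.

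**Figure D1:**
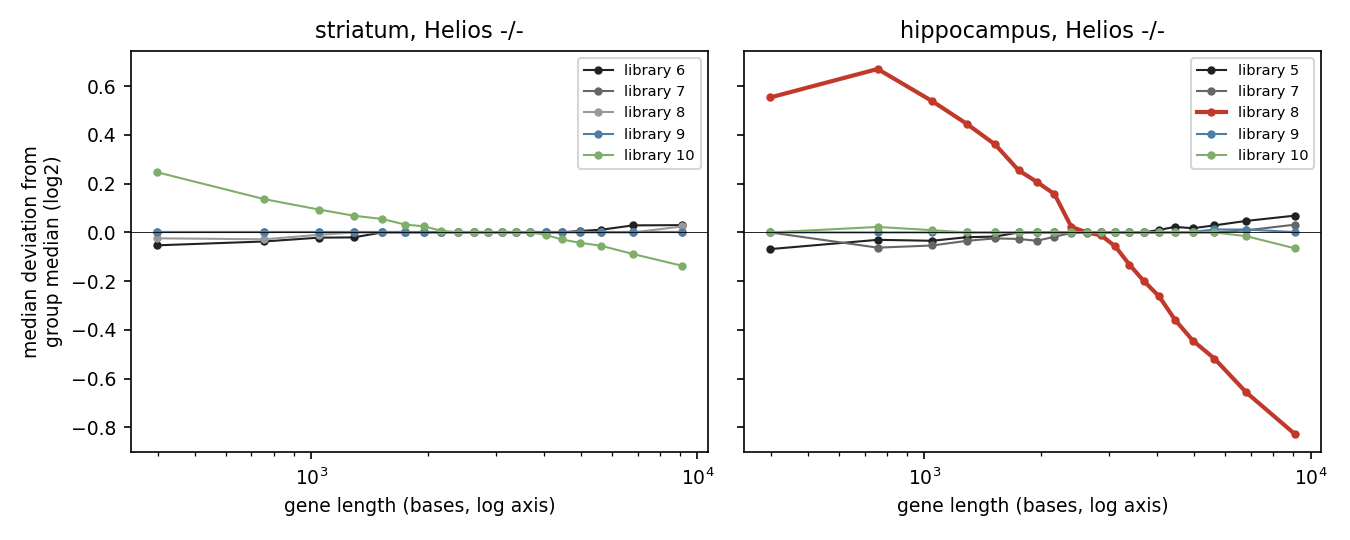
Median deviation of each knockout library from the median of its group (log2 of RPKM + 1), in 20 groups of genes ordered by length in bases (log axis), with striatal libraries on the left and hippocampal ones on the right. Hippocampal library 8 runs from above 0 in short genes to below 0 in long ones, while the other libraries stay within 0.3 of 0.

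The gene named in the labels was read first. Ikzf2 (Entrez 22779, mm10 chromosome 1, 69531207 to 69687351) had 1.11, 0.842, 1.09, 0.849 and 0.76 RPKM in knockout striatum, and 1.43, 0.785, 0.353, 0.617 and 0.55 RPKM in knockout hippocampus. The hippocampal library 5 therefore carried more Ikzf2 RNA than any other knockout library. The means were 0.930 ± 0.158 RPKM in knockout striatum and 0.747 ± 0.412 RPKM in knockout hippocampus (SD, n = 5 each), a difference of 0.182 RPKM that the exact permutation test did not separate (two-sided p = 0.413, where the smallest possible is 0.00794). Wild-type striatum had 2.09 to 3.66 RPKM and wild-type hippocampus 0.782 to 1.61 RPKM. The lowest wild-type value, in hippocampal library 6, lay below that of knockout library 5, so in these 2 libraries Ikzf2 went against the labels, and both carry codes beginning with 7. Each of the 2 codes beginning with 7 has opposite genotype labels in the 2 tissues: that of striatal knockout library 6 is labelled wild type in hippocampus, and that of hippocampal knockout library 5 is labelled wild type in striatum. Whether these labels are right cannot be told from the values here, and without these libraries, with 4 left a side, 3039 genes were called between the knockout tissues, against 4247 with them. In the libraries with other codes Ikzf2 averaged 0.885 ± 0.143 RPKM in knockout striatum and 0.576 ± 0.179 RPKM in knockout hippocampus (SD, n = 4 each), and the exact permutation p was 0.0571, where the smallest possible is 0.0286. Signal over parts of the gene that a deletion leaves in place cannot be told from intact messenger RNA in these values. In wild-type tissue Ikzf2 was higher in striatum by 0.65 on the log2 scale (adjusted p = 0.00239, limma), against 0.17 in the knockout (adjusted p = 0.407, limma).

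Ikzf1, which encodes Ikaros, the founding member of the family, kept a steep regional difference in the knockout. Its levels were 16.6, 14, 14.96, 12.3 and 15.9 RPKM in knockout striatum, and 0.331, 0.433, 0.404, 0.653 and 0.502 RPKM in knockout hippocampus. Every striatal library was more than 10 RPKM above every hippocampal one. The difference was 3.42 (SE 0.10, adjusted p = 2.48e-09, limma), against 3.67 in wild type. Ikzf4 had 6.82 to 9.87 RPKM in knockout striatum and 2.10 to 7.22 RPKM in knockout hippocampus and was not called (difference 0.64, adjusted p = 0.0728, limma). Without hippocampal library 8, where it was lowest, its difference was 0.38 and it was called (adjusted p = 0.0103, limma). Ikzf5, with a difference of 0.19, was not called either, and Ikzf3 was at or below 0.0242 RPKM in all 10 libraries.

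**Figure D2:**
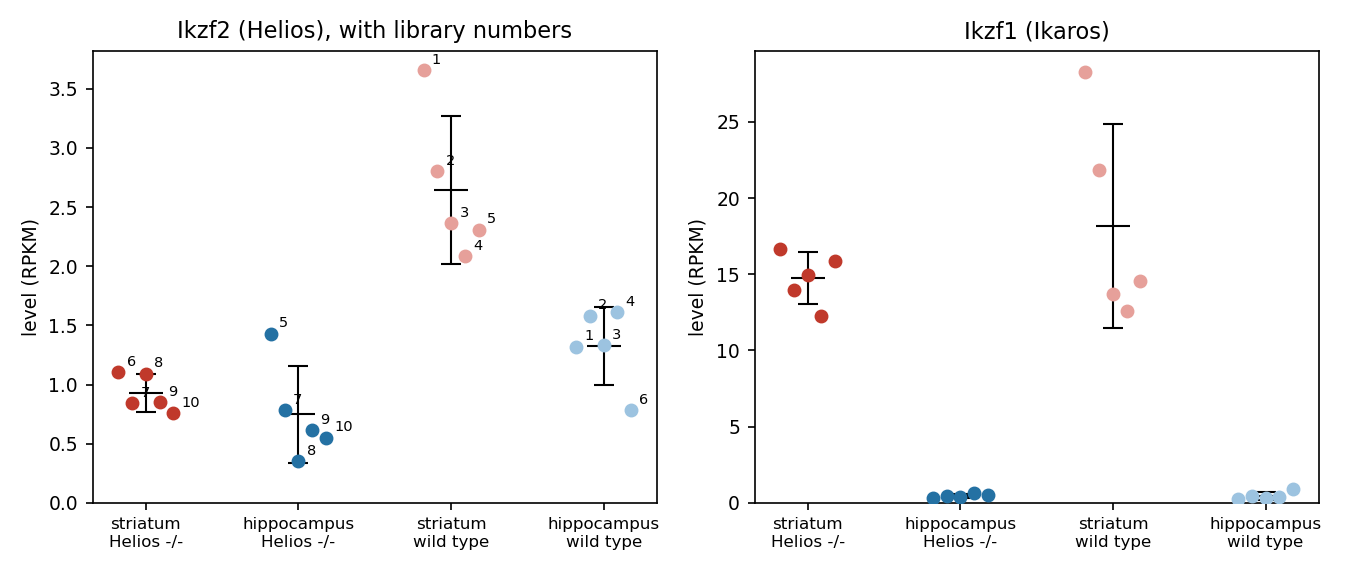
RPKM of Ikzf2 and Ikzf1 in each library (points, numbered by replicate for Ikzf2), with the mean and SD of each group of 5 as black bars. Ikzf2 is low in both knockout tissues except for hippocampal library 5 at 1.43 RPKM, while Ikzf1 is above 12 RPKM in every knockout striatal library and below 1 RPKM in every hippocampal one.

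Of 14835 genes tested between knockout striatum and knockout hippocampus, 4247 were called, 28.6% of those tested. Calls higher in knockout striatum numbered 1939 (13.1%) and calls higher in knockout hippocampus 2308 (15.6%). Strong calls came to 420 genes (2.83%) higher in striatum and 462 (3.11%) higher in hippocampus. All striatal libraries lay above all hippocampal ones in 2076 genes (14.0%), and all hippocampal libraries above all striatal ones in 2072 (14.0%). The median difference over all genes was 0.001. Without hippocampal library 8 the called genes numbered 6405, among them 4224 of the 4247.

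The genes of largest difference toward striatum were receptors, peptides and transcription factors of spiny projection neurons. Tac1 (Entrez 21333, chromosome 6, 7555061 to 7562978), which encodes the precursor of substance P, had 79.5, 46.3, 60.9, 73.3 and 90.5 RPKM in knockout striatum, and 0.561, 0.432, 0.764, 1.16 and 0.756 RPKM in knockout hippocampus. The groups lay far apart, with a difference of 5.33 (SE 0.17, adjusted p = 7.18e-09, limma) and a ratio of mean RPKM of 95.4. In bulk tissue, fewer cells of a type and less RNA per cell cannot be told apart, here and in all results that follow. Isl1, a LIM homeodomain factor of direct-pathway neurons and cholinergic neurons, had 54.4, 28.9, 31.9, 33.5 and 45.5 RPKM in knockout striatum, and 0.0135, 0.216, 0.0447, 0.568 and 0.0281 RPKM in knockout hippocampus. Every hippocampal library was below 1 RPKM, and the difference was 5.07. Also among the 15 largest were Rxrg (4.72), Foxp2 (4.25), Six3 (4.04), Rarb (3.99), Ebf1 (3.98), Drd2 (3.90), Pbx3 (3.89), Rnu2-10 (3.84), Penk (3.82), Gucy1a1 (3.81), Ppp1r1b (3.72) and Syt6 (3.61). Rnu2-10 is a copy of the U2 small nuclear RNA, whose many near-identical copies share reads, so its value is uncertain. The 15 were picked for not overlapping between the groups.

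The 250 bases before a RefSeq transcript start (build GRCm38.p6) are shown for the 3 genes of largest difference toward striatum that had an entry. These genes were picked for their tissue difference, not for varying together across libraries. Ikaros family proteins are known to bind a core of GGGAA, and TGGGAA was searched for on both strands. Capitals mark a match to TGGGAA, and the shorter core GGGAA is left unmarked where it occurs outside it.
Tac1 promoter, chr6:7554811-7555060, plus strand: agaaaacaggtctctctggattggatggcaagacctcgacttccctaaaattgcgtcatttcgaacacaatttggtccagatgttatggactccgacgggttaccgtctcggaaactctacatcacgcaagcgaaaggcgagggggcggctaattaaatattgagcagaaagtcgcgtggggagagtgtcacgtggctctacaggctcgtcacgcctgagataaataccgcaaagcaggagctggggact
Isl1 promoter, chr13:116309689-116309938, minus strand: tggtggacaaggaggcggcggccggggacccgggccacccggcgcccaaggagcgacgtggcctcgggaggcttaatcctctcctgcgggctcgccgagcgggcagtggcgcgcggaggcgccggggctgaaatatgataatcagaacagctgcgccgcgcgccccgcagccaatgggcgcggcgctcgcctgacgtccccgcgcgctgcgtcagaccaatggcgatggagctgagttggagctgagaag
Rxrg promoter, chr1:167598112-167598361, plus strand: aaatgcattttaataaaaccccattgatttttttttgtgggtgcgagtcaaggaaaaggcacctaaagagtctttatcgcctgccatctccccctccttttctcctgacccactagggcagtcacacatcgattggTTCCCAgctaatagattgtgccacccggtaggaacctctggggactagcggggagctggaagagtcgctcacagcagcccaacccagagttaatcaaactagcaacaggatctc
One window of the 3, that of Rxrg, held a match, on the other strand. Of 32851 promoter windows of this length, 21.6% held 1, and so did 20.5% of the windows of tested genes. Among genes called strongly, the share was 18.3% (57 of 312) for those higher in knockout striatum and 21.4% (72 of 336) for those higher in knockout hippocampus, so neither stood more than 3 percentage points from that of tested genes.

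**Figure D3:**
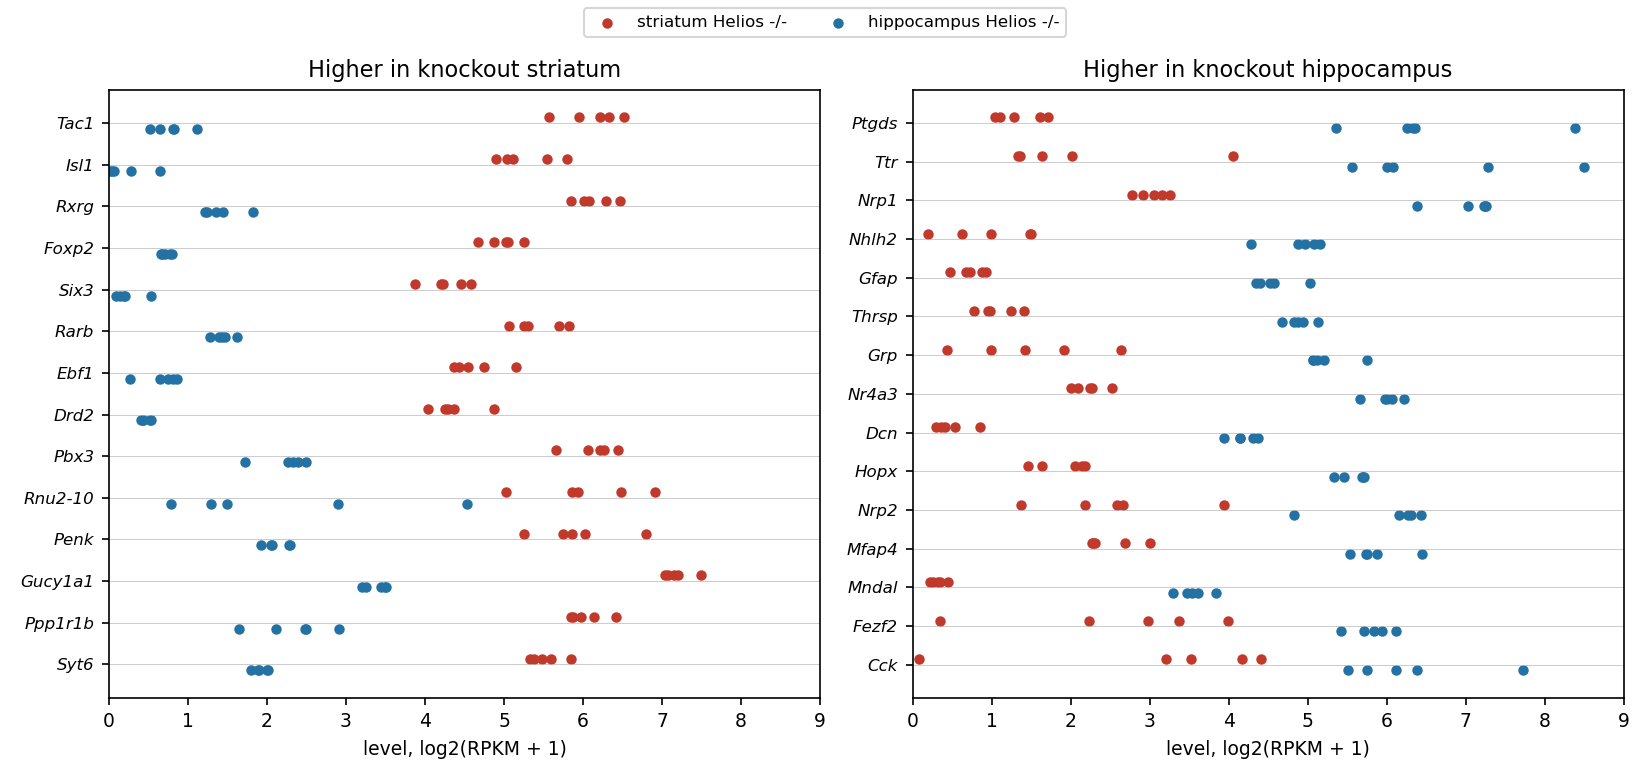
Levels in log2(RPKM + 1) of 14 of the 15 genes of largest difference toward knockout striatum (left) and of the 15 toward knockout hippocampus (right), 1 point per library, striatum in red above hippocampus in blue. The groups do not overlap in any of these genes, which was part of how they were picked, and Fezf2 and Cck are near 0 in 1 striatal library.

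Transcription factors of the subpallium were higher in knockout striatum in 18 of 20 tested genes, and 16 were called strongly. Their median difference was 2.53, against 2.45 in wild type. Dlx6, a homeobox factor of the ganglionic eminences, had 36.4, 20.8, 26.3, 26.4 and 26.3 RPKM in knockout striatum, and 1.08, 1.67, 1.11, 1.88 and 1.09 RPKM in knockout hippocampus. Dlx1 had 38.1 to 62.0 RPKM in knockout striatum and 17.0 to 22.2 RPKM in knockout hippocampus, a smaller difference of 1.25. Dlx2 differed by 1.75 and Dlx5 by 2.37. Gsx2, a progenitor factor of the lateral ganglionic eminence, had 2.33 to 5.05 RPKM in knockout striatum and 0.164 to 0.305 RPKM in knockout hippocampus. Lhx6, a factor of migrating interneurons, had 23.8 to 36 RPKM in knockout striatum and 22.6 to 29 RPKM in knockout hippocampus. The ranges of Lhx6 overlapped, and it was not called (adjusted p = 0.374, limma).

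Transcription factors of spiny projection neurons were called higher in knockout striatum in 11 of 13 tested genes, with a median difference of 1.40, and none was called higher in hippocampus. Bcl11b, also known as Ctip2, had 174, 121, 131, 128 and 130 RPKM in knockout striatum, and 42.1, 40.1, 19.4, 25.9 and 37.4 RPKM in knockout hippocampus. Foxp1 had 73.7 to 116 RPKM in knockout striatum and 13.3 to 25.9 RPKM in knockout hippocampus. The nuclear receptors of retinoids were among the steepest: Rarb had 32.5 to 55.7 RPKM in knockout striatum and 1.42 to 2.07 RPKM in knockout hippocampus. Foxo1 (difference 0.44) and Klf16 (0.21) were not called.

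Markers of the direct pathway, the spiny projection neurons that express dopamine receptor D1 and substance P, were higher in knockout striatum in 7 of 10 tested genes. Their median difference was 2.85, against 2.495 in wild type. Drd1 had 16.5, 14.04, 13.96, 13.8 and 15.3 RPKM in knockout striatum, and 1.32, 1.12, 0.703, 1.02 and 1.23 RPKM in knockout hippocampus (difference 2.92, SE 0.10, adjusted p = 7.18e-09, limma). The peptide precursor gene Pdyn differed by 2.77. Eya1, a transcriptional coactivator, went the other way, with 1.07 to 1.53 RPKM in knockout striatum and 3.52 to 5.47 RPKM in knockout hippocampus (difference -1.35, adjusted p = 6.06e-06, limma). Sfxn1, with a difference of 0.15, was not called.

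Markers of the indirect pathway, whose neurons express dopamine receptor D2 and enkephalin and are those that Helios is known to mark, were higher in knockout striatum in 10 of 10 tested genes. Their median difference was 2.82, and 2.94 over the 9 genes also tested in wild type, against 2.99 there. Drd2 had 28.3, 15.4, 18.6, 18.1 and 19.7 RPKM in knockout striatum, and 0.353, 0.32, 0.437, 0.45 and 0.344 RPKM in knockout hippocampus. Penk, the precursor of enkephalins, had 110, 37.3, 52.8, 63.9 and 57.2 RPKM in knockout striatum, and 3.17, 3.13, 3.92, 2.80 and 3.85 RPKM in knockout hippocampus. Striatal library 6 was the highest in both genes. Adora2a, an adenosine receptor of these neurons, had 25.0 to 55.2 RPKM in knockout striatum and 1.90 to 2.74 RPKM in knockout hippocampus.

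The machinery of GABA neurons followed the same direction in 5 of 5 genes, with a median difference of 1.98. Gad1, which makes GABA, had 45.7 to 101 RPKM in knockout striatum and 15.5 to 28.8 RPKM in knockout hippocampus. Its partner Gad2 differed by 2.21 and the vesicular transporter Slc32a1 by 2.03. Signalling genes of spiny projection neurons were called in 11 of 18 tested, with a median of 0.82. Ppp1r1b, the phosphoprotein DARPP-32, had 56.6 to 84.7 RPKM in knockout striatum and 2.14 to 6.50 RPKM in knockout hippocampus. Rgs9, a regulator of G protein signalling, had 6.53 to 10.2 RPKM in knockout striatum and 2.91 to 4.76 RPKM in knockout hippocampus. Adcy5 and Ptpn5, adult striatal enzymes, were not called, with differences of 0.06 each.

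Of 12 retinoic acid genes tested, 6 were higher in knockout striatum and 4 in knockout hippocampus, and members of 1 role fell on both sides. The receptors Rxrg, Rarb and Rara were higher in knockout striatum, and Rarg was higher in knockout hippocampus by 0.28 (adjusted p = 0.0418, limma), a call lost when hippocampal library 5 or 10 or any striatal library was left out, at 0.0577 to 0.0978. The binding protein Crabp1 was higher in knockout striatum, with 145, 54.7, 83.4, 97.2 and 78.4 RPKM in knockout striatum against 5.21, 7.90, 10.8, 6.22 and 6.90 RPKM in knockout hippocampus. The binding protein Crabp2 was higher in knockout hippocampus (difference -0.87). Its call was lost without codes beginning with 7 (adjusted p = 0.0541, limma) and with libraries paired by replicate number (adjusted p = 0.0775, limma). Cyp26b1, which degrades retinoic acid, was higher in knockout striatum by 1.46, a call lost with libraries paired by replicate number (1.205, adjusted p = 0.0995, limma). The synthesis enzyme Aldh1a2, which meninges are known to express, was near 0 in knockout striatum, with 0.0538 to 0.168 RPKM, and had 4.22 to 7.72 RPKM in knockout hippocampus.

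Among opioid, cannabinoid and peptide receptors, 6 of 12 were higher in knockout striatum and 5 in knockout hippocampus. Oprm1, the mu opioid receptor, had 1.68 to 3.89 RPKM in knockout striatum and at most 0.151 RPKM in knockout hippocampus. Oprd1 and Oprk1, the delta and kappa receptors, differed by 1.14 and 0.79. The neurokinin receptor Tacr3 was higher in knockout hippocampus, with 0.529 to 1.17 RPKM in knockout striatum and 4.20 to 9.31 RPKM in knockout hippocampus. Cnr1, the cannabinoid receptor of brain, was called toward hippocampus by 1.04, although its groups overlapped: it had 28.9 to 61.4 RPKM in knockout striatum and 38.5 RPKM in hippocampal library 8, against 100 to 106 RPKM in the other hippocampal libraries. Its adjusted p was 0.0188 with all libraries and 0.0513 without striatal library 6 (limma).

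Interneuron and cholinergic markers were higher in knockout striatum in 7 of 12 tested genes and higher in knockout hippocampus in 3. Lhx8, a factor of cholinergic neurons, had 18.4, 5.18, 5.79, 11.3 and 7.18 RPKM in knockout striatum, and 0.0173, 0, 0.0285, 0.0196 and 0.018 RPKM in knockout hippocampus. Striatal libraries 6 and 9 were the highest. Npy, a peptide of interneurons, had 110 to 141 RPKM in knockout striatum and 20.6 to 41.5 RPKM in knockout hippocampus. Sst, the somatostatin gene, overlapped between the tissues, with 86.7 to 255 RPKM in knockout striatum and 39.2 to 88.9 RPKM in knockout hippocampus, and was called (difference 1.29, adjusted p = 0.00653, limma). That call was lost with libraries paired by replicate number (1.208, adjusted p = 0.0629, limma).

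Toward hippocampus, the largest difference was that of Ptgds (Entrez 19215, chromosome 2, 25466709 to 25470110), a prostaglandin D synthase of meninges. It had 2.06, 2.29, 1.06, 1.16 and 1.44 RPKM in knockout striatum, and 80.8, 40.02, 333, 75.4 and 79.4 RPKM in knockout hippocampus. Library 8 stood apart among the hippocampal libraries, yet the lowest of them was over 10 times the highest striatal one. The difference was -5.18 (SE 0.45, adjusted p = 8.89e-06, limma). Nrp1, the neuropilin receptor of semaphorins, had 5.88, 8.60, 7.31, 6.52 and 7.95 RPKM in knockout striatum, and 152, 151, 82.3, 130 and 150 RPKM in knockout hippocampus (difference -4.00). Nhlh2, a helix-loop-helix factor of immature neurons, had 0.146, 1.79, 0.994, 1.83 and 0.548 RPKM in knockout striatum, and 28.5, 30.3, 18.5, 34.8 and 32.8 RPKM in knockout hippocampus (difference -3.91). The others among the 15 were Ttr (-4.60), Gfap (-3.84), Thrsp (-3.82), Nr4a3 (-3.76), Grp (-3.76), Dcn (-3.69), Hopx (-3.68), Nrp2 (-3.45), Mfap4 (-3.36), Mndal (-3.23), Fezf2 (-3.22) and Cck (-3.22). They hold a nuclear receptor (Nr4a3), peptides (Grp, Cck), an intermediate filament of astrocytes (Gfap), matrix proteins (Dcn, Mfap4) and a choroid plexus carrier (Ttr).

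The same windows are shown for Ptgds, Nrp1 and Nhlh2, each higher in knockout hippocampus, with matches to TGGGAA in capitals. Ttr, whose difference was larger than those of Nrp1 and Nhlh2, is not shown.
Ptgds promoter, chr2:25469750-25469999, minus strand: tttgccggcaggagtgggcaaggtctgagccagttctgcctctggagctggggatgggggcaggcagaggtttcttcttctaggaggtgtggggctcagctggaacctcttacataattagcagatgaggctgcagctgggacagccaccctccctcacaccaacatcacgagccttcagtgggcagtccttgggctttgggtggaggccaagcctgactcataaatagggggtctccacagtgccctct
Nrp1 promoter, chr8:128358823-128359072, plus strand: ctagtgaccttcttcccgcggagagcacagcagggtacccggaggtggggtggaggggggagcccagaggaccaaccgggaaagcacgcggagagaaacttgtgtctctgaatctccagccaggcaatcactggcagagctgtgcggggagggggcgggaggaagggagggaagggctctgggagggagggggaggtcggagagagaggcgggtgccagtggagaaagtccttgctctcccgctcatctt
Nhlh2 promoter, chr3:102009895-102010144, plus strand: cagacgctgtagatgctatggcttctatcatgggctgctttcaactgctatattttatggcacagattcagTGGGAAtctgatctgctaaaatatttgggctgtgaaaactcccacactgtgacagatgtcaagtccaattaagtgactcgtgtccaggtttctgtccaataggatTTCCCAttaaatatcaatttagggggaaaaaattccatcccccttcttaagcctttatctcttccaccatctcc
The Nhlh2 window held a match to TGGGAA on each strand, and those of Ptgds and Nrp1 held none, though the Nrp1 window holds the shorter GGGAA.

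Transcription factors of the pallium were higher in knockout hippocampus in 16 of 19 tested genes, all of them strongly, and none was called toward striatum. The median difference was -2.23. Emx2, a homeobox factor of the medial pallium, had 2.81, 4.07, 5.08, 4.36 and 5.30 RPKM in knockout striatum, and 33.9, 42.3, 27.2, 37.7 and 39.1 RPKM in knockout hippocampus. Dmrt3, a factor of medial pallial progenitors, had at most 0.0493 RPKM in knockout striatum and 5.76 to 6.48 RPKM in knockout hippocampus, with an adjusted p of 8.54e-10 (limma), the smallest of all genes together with that of the kinase Dclk3. The proneural gene Neurog2 had 0.967 to 4.45 RPKM in knockout striatum and 21.5 to 30.1 RPKM in knockout hippocampus. Neurod1, which acts after it in the granule cell lineage, had 7.11 to 21.6 RPKM in knockout striatum and 55.4 to 139 RPKM in knockout hippocampus. Tbr1, Pax6 and Lmo4 were not called.

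Several pallial genes varied among striatal libraries by a large multiple. Emx1 had 0.257, 12.3, 7.34, 3.38 and 7.29 RPKM in knockout striatum, and 34.4, 38.1, 51.7, 36.8 and 40.03 RPKM in knockout hippocampus. Fezf2, a factor of subcortical projection neurons, had 0.278, 14.9, 9.33, 3.68 and 6.87 RPKM in knockout striatum, and 68.7, 56.1, 60.5, 41.9 and 51.6 RPKM in knockout hippocampus. Cck, a peptide of pallial and interneurons, had 0.0548, 20.2, 10.5, 17.0 and 8.26 RPKM in knockout striatum, and 52.9, 68.5, 210, 44.7 and 82.6 RPKM in knockout hippocampus. Striatal library 6 was the lowest in all 3 genes. Summed over the pallial list, striatal libraries had 377, 800, 487, 369 and 532 RPKM, and hippocampal libraries 1345, 1442, 1136, 1201 and 1425 RPKM. Without striatal library 6 the same number of pallial genes, 16 of 19, was called toward hippocampus, with a median of -1.89. Markers of cortical projection neurons were higher in knockout striatum in 8 of 11 tested genes, with a median of 0.98, and 2, Fezf2 and Crym, were higher in knockout hippocampus. The 8 include Foxp2, with the largest difference of the list (4.25), and Tle4. Both also stand in the list of transcription factors of spiny projection neurons, so the count is not of cortical cells alone. Rorb, a cortical layer factor, had 1.31, 8.31, 4.54, 2.10 and 3.51 RPKM in knockout striatum and 0.678 to 0.85 RPKM in knockout hippocampus, again lowest in striatal library 6. Cortex borders both tissues, and the part of tissue carried over in dissection was not tested.

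Genes of the cortical hem and of hippocampal Wnt signalling were called toward hippocampus in 17 of 19 tested, with a median difference of -1.51, against -1.53 in wild type. The ligand Wnt8b had 0.0111, 0, 0, 0 and 0 RPKM in knockout striatum, and 6.40, 4.85, 1.87, 7.59 and 4.45 RPKM in knockout hippocampus. Wnt3a, the hem ligand that hippocampal growth requires, had at most 0.0295 RPKM in knockout striatum and 0.777 to 3.19 RPKM in knockout hippocampus. The signal enhancer Rspo3 had 0.251 to 2.03 RPKM in knockout striatum and 7.27 to 16.1 RPKM in knockout hippocampus. Responses to Wnt went the same way, since Lef1 differed by -1.67 and Axin2 by -0.93. Sfrp1, a secreted Wnt antagonist, was higher in knockout striatum, with 19.4 to 32.4 RPKM there and 11.1 to 15.7 RPKM in knockout hippocampus. Tcf7l2 was not called, and its 9.77 RPKM in striatal library 9 stood against 0.983 to 2.63 RPKM in the other striatal libraries.

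Cajal-Retzius cells are early neurons that secrete reelin. Their markers were called toward hippocampus in 9 of 11 tested genes, with a median of -1.81. Reln had 19.8, 23.6, 21.99, 18.6 and 15.6 RPKM in knockout striatum, and 87.2, 77.7, 37.4, 102 and 72.2 RPKM in knockout hippocampus. Trp73, a p53 relative that these cells express, had 0.275 to 0.877 RPKM in knockout striatum and 10.2 to 16.3 RPKM in knockout hippocampus. The gene for calretinin, Calb2, had 2.62 to 4.92 RPKM in knockout striatum and 30.3 to 48.8 RPKM in knockout hippocampus. Cacna2d2 and Tbr1 were not called.

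Adult markers of hippocampal fields did not share a direction. Of 8 dentate markers tested, 3 were higher in knockout striatum and 3 in knockout hippocampus. For 12 markers of CA pyramidal neurons the counts were 5 and 4, with 3 toward striatum when hippocampal library 5, 7 or 10 or striatal library 9 or 10 was left out. Calb1, a calcium-binding protein of granule cells and of spiny projection neurons, had 13.6 to 23.98 RPKM in knockout striatum and 4.28 to 6.88 RPKM in knockout hippocampus. Dkk3 had 8.85 to 12.5 RPKM in knockout striatum and 26.4 to 31.3 RPKM in knockout hippocampus. Among genes of glutamate neurons, 2 of 6 were called, both toward hippocampus: Slc17a7, the vesicular transporter VGLUT1, and Nrn1. Slc17a7 had 0.0896, 10.4, 8.86, 17.4 and 3.26 RPKM in knockout striatum, and 26.3, 26.3, 21.9, 23.5 and 27.9 RPKM in knockout hippocampus. Its adjusted p was 0.0289 with all libraries (limma). It rose above 0.05 when any hippocampal library or striatal library 10 was left out, at 0.0517 to 0.0662, which left 1 call among these genes.

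**Figure D4:**
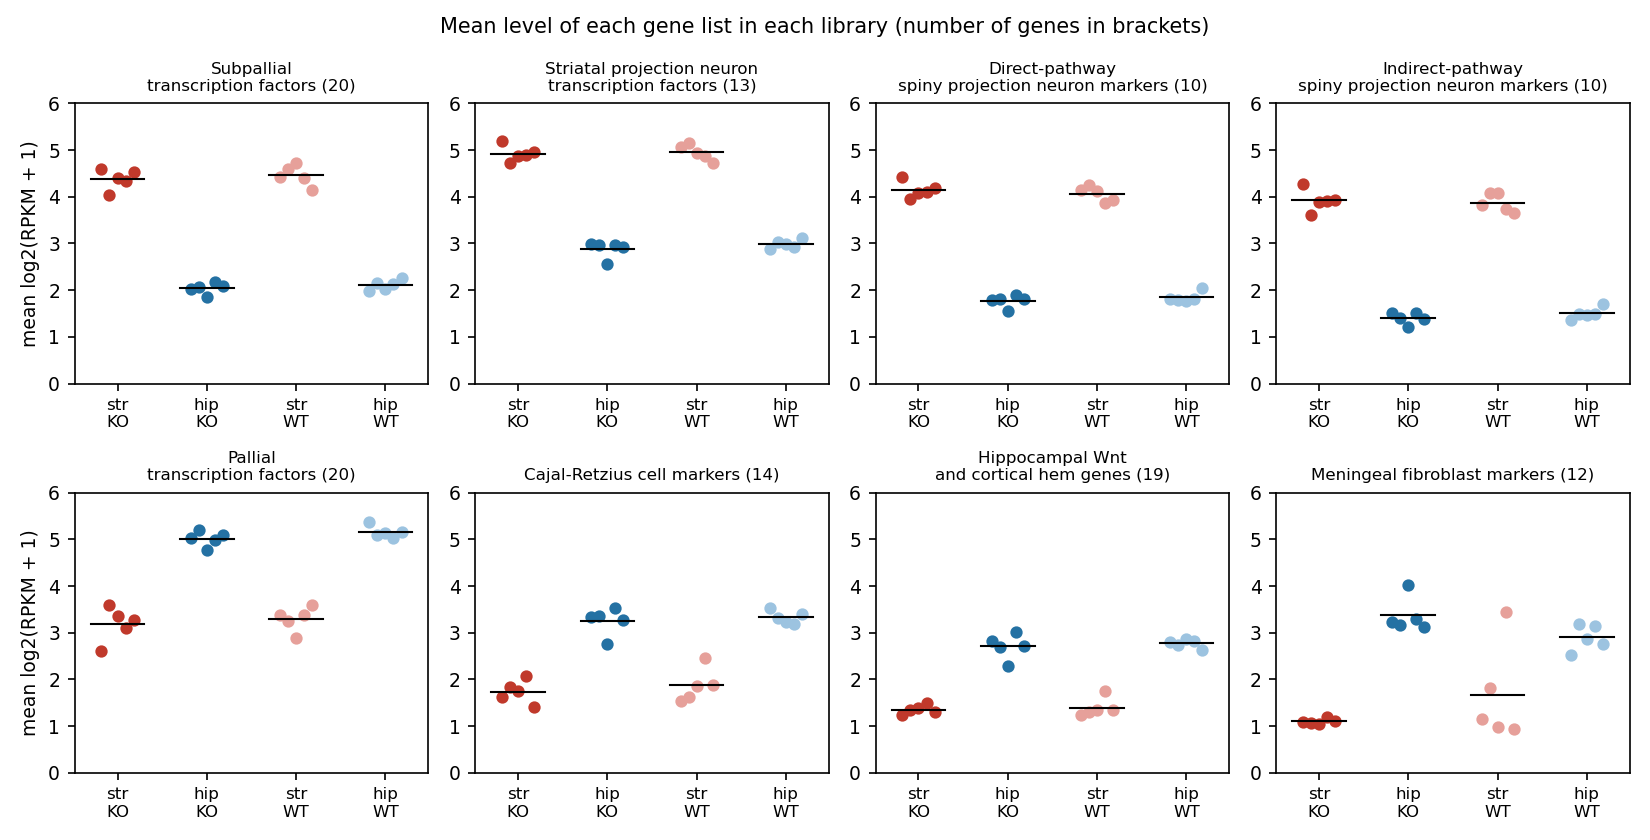
Mean log2(RPKM + 1) of 8 gene lists in each library (points) with the group mean (line), for knockout striatum, knockout hippocampus, wild-type striatum and wild-type hippocampus. In knockout tissue the striatal lists of the upper row lie higher in striatum and the lists of the lower row higher in hippocampus, and meningeal markers are highest at 4.02 in hippocampal knockout library 8.

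Axon guidance genes were divided between the tissues, with 15 of 33 tested higher in knockout striatum and 10 higher in knockout hippocampus. The Slit receptors Robo1 and Robo2 were on the striatal side: Robo2 had 80.2, 66.5, 63.2, 63.7 and 59.3 RPKM in knockout striatum, and 8.08, 7.87, 5.47, 8.29 and 8.14 RPKM in knockout hippocampus. Of their ligands, Slit1 was also higher in knockout striatum (difference 0.56, adjusted p = 0.0296, and 0.40 without hippocampal library 8, adjusted p = 0.00652, limma). The call of Slit1 was lost without hippocampal library 10 or striatal library 6, 8 or 9, at adjusted p-values of 0.0576 to 0.0745 (limma). Slit2 and Slit3 were higher in knockout hippocampus, by 1.03 and 2.06, and the call of Slit2 was lost, at adjusted p-values of 0.0536 to 0.0612 (limma), without hippocampal library 5, 7, 9 or 10 or striatal library 6 or 10. Ntn1, the ligand netrin, had 13.5 to 35.0 RPKM in knockout striatum and 1.12 to 3.32 RPKM in knockout hippocampus. Its receptor Dcc had 10.3 to 15.4 RPKM in knockout striatum and 11.5 RPKM in hippocampal library 8, against 34.5 to 40.4 RPKM in the other hippocampal libraries. The neuropilins were higher in knockout hippocampus together with Sema3c (-2.28), while Sema3a (1.72) and Sema3f (1.31) were higher in knockout striatum.

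Of 10 GABA-A receptor subunits tested, 7 were higher in knockout striatum, and Gabra4, with a difference of -0.53, was higher in knockout hippocampus. The call of Gabra4 was lost without hippocampal library 5, 7, 9 or 10 or striatal library 7, 8 or 10. Among 21 glutamate receptor genes 6 were higher in knockout striatum and 2 in knockout hippocampus, 1 of them without hippocampal library 5, 7, 9 or 10 or striatal library 7, 8 or 10. Grm3, a metabotropic receptor, had 18.1 to 22.2 RPKM in knockout striatum and 4.10 to 8.06 RPKM in knockout hippocampus, while the kainate subunit Grik4 had 2.92 to 4.56 RPKM in knockout striatum and 7.73 to 9.78 RPKM in knockout hippocampus. Immediate early genes were called toward striatum in 8 of 10 tested, with a median of 0.59. Npas4, induced by neuronal activity, had 11.1, 4.50, 7.33, 5.34 and 6.83 RPKM in knockout striatum, and 1.05, 0.757, 1.31, 0.946 and 0.672 RPKM in knockout hippocampus. Ier2 was higher in knockout hippocampus by 1.48, the only call in that direction with all libraries, and there were 2 without striatal library 10.

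Genes of cell division, of the Notch pathway and of the chromatin complexes that Ikaros proteins recruit gave 4 calls of 18, 5 of 15 and 5 of 16, against 28.6% called among all genes tested. Of 18 cyclins and cell cycle genes, 1 was higher in knockout striatum, the inhibitor Cdkn1a (0.94), and 3 were higher in knockout hippocampus, 5 without striatal library 10. Notch pathway genes gave 3 calls toward striatum and 2 toward hippocampus of 15. Without hippocampal library 8 there were 7 toward hippocampus, and without hippocampal library 10 or striatal library 8 there was 1 toward striatum. Over all genes tested, leaving out hippocampal library 8 raised the calls toward hippocampus from 2308 to 3390. Among 16 partners of Ikaros proteins, the remodellers Chd3 (0.76) and Chd5 (0.69) were higher in knockout striatum, and Hdac1 (-0.61), Mbd2 (-0.25) and Gatad2a (-0.58) were higher in knockout hippocampus, with 5 calls on that side without hippocampal library 8. The call of Mbd2 was lost without hippocampal library 5, 7, 9 or 10 or striatal library 7, 8 or 10. That of Chd3 was lost with libraries paired by replicate number (0.781, adjusted p = 0.0643, limma). Of 11 genes of immature neurons 1 was higher in knockout striatum and 4 in knockout hippocampus, and the widely shared Dcx and Tubb3 were not called, with differences of 0.24 and 0.02.

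Glial lists differed in direction. Over all genes tested, 13.1% were called toward knockout striatum and 15.6% toward knockout hippocampus. Oligodendrocyte lineage markers were higher in knockout striatum in 8 of 10 tested genes, with a median of 0.63. Mbp, a myelin protein, had 5.68 to 7.67 RPKM in knockout striatum and 2.27 to 3.06 RPKM in knockout hippocampus. Astrocyte and radial glia markers gave 3 calls toward striatum and 6 toward hippocampus of 12. Gfap had 0.656, 0.386, 0.898, 0.847 and 0.599 RPKM in knockout striatum, and 21.98, 19.3, 22.8, 31.7 and 20.1 RPKM in knockout hippocampus. Aldh1l1, another astrocyte enzyme, went the other way, with 12.8 to 17.8 RPKM in knockout striatum and 5.39 to 10.4 RPKM in knockout hippocampus. Microglia and macrophage markers were called toward hippocampus in 7 of 11, with a median of -0.61, led by the border macrophage receptor Mrc1 (-1.83). Endothelial and pericyte markers gave 3 calls of 11, all toward hippocampus, against 28.6% called in either direction among all genes tested. Without hippocampal library 8 there were 6, while calls toward hippocampus over all genes rose from 2308 to 3390. Of 7 ependymal genes 1, the ciliary factor Foxj1, was called toward hippocampus (difference -0.51, adjusted p = 0.0498, limma). That call was lost when any striatal library or hippocampal library 5, 8, 9 or 10 was left out, at adjusted p-values of 0.0586 to 0.1096 (limma), and 3 ependymal genes were called without hippocampal library 7.

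Markers of meningeal fibroblasts, cells that cover the brain rather than form part of it, were called toward hippocampus in 12 of 12 genes. Their median difference was -2.05. The call of Crabp2, a member of this list, was lost without codes beginning with 7 (adjusted p = 0.0541, limma). Dcn, a matrix proteoglycan, had 0.451, 0.283, 0.331, 0.811 and 0.234 RPKM in knockout striatum, and 16.7, 16.7, 19.7, 18.8 and 14.3 RPKM in knockout hippocampus. Col1a1 had 0.2 to 0.381 RPKM in knockout striatum and 6.13 to 15.2 RPKM in knockout hippocampus. Summed over the list, striatal libraries had 29.97, 28.04, 29.8, 34.6 and 29.5 RPKM, and hippocampal libraries 202, 157, 529, 209 and 182 RPKM. No marker of the list was at 0 in any knockout library. Without hippocampal library 8 the count was the same and the median -1.90. Choroid plexus markers were called toward hippocampus in 4 of 6, with summed levels of 4.41 to 19.2 RPKM in knockout striatum and 53.1 to 384 RPKM in knockout hippocampus, highest in hippocampal library 5. Ttr had 15.6, 3.06, 1.56, 1.53 and 2.12 RPKM in knockout striatum, and 361, 46.4, 155, 66.8 and 62.9 RPKM in knockout hippocampus. Blood genes, globins that share reads among them, gave 3 calls of 4 toward hippocampus, and 0 or 1 without hippocampal library 9 or 10 or striatal library 6, 7 or 8. The part of such covering tissue in the differences toward hippocampus was not tested.

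Thalamic markers gave 2 calls in each direction of 8, and septal markers 2 toward striatum and 4 toward hippocampus of 7. Lhx9, which thalamus and medial pallium both express, had 0.0262, 0.0683, 0.106, 4.67 and 0.13 RPKM in knockout striatum, and 8.35, 11.7, 4.91, 10.7 and 9.30 RPKM in knockout hippocampus. Striatal library 9 was the only striatal one above 1 RPKM in Lhx9, and it was also the highest in Tcf7l2.

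The tissue differences of the knockout were then set beside those of wild type, which share no library with them. In wild type 14955 genes were tested, and 3120 (20.9%) were called higher in striatum and 3471 (23.2%) higher in hippocampus. The fits compared here did not pair libraries by replicate number. With that pairing 4874 genes were called in wild type, against 6591 without it, and 2387 in the knockout, against 4247. The median standard error was 0.122 in the knockout and 0.0755 in wild type. Of the 420 genes strongly called toward striatum in the knockout, 409 were tested in wild type, and 405 of them were called in the same direction there, 99.0%. Of the 462 strongly called toward hippocampus in the knockout, 449 were tested in wild type, and 407 were called in the same direction, 90.6%. Read from the other side, 347 of 369 tested genes (94.0%) strongly called toward striatum in wild type, and 382 of 398 (96.0%) strongly called toward hippocampus, were called in the knockout. No gene strongly called in either genotype was called in the opposite direction in the other. Across 14580 genes tested in both genotypes the differences correlated with Pearson's r of 0.919 and Spearman's rho of 0.798. Genes are not independent replicates, and these values are a description.

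**Figure D5:**
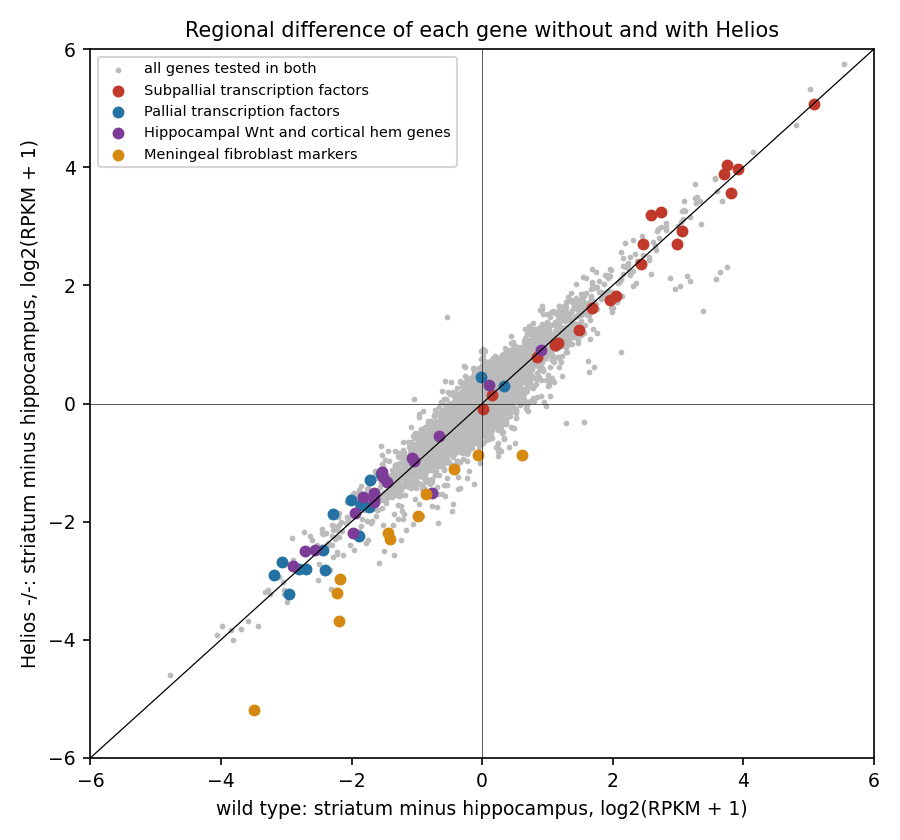
Difference between striatum and hippocampus of each gene tested in both genotypes (log2 of RPKM + 1, striatum minus hippocampus), knockout on the vertical axis and wild type on the horizontal, with 4 lists in colour and the line of equality. Subpallial genes lie along the line at the upper right and pallial and hem genes along it at the lower left, while the meningeal markers lie below it.

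Whether a tissue difference changed with genotype was tested as the interaction of tissue and genotype over all 20 libraries. No gene of 15254 was called (0.0%, smallest adjusted p = 0.797, limma). At an unadjusted p below 0.05 there were 518 genes, 3.40% of those tested, and limma voom on recovered reads gave 461 and also no call. The count at that p was 828 with the replicate block, 778 with the length correction and 330 without striatal knockout library 9, each without a call. The absence of calls does not show that the differences were equal. For 1006 genes strongly called in either genotype and tested for the interaction, the estimate lay within 1 on the log2 scale in 978. The 95% interval lay within 1 for 784 of them and reached 1 or more for 222. For Drd2 the interval of the change ran from -0.27 to 0.66, for Tac1 from -0.17 to 0.80 and for Nrp1 from -0.64 to 0.27.

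The smallest interaction p-values belonged to Crabp2, Phkg2 and Slc13a4. Crabp2, a retinoic acid binding protein that meninges also express, had 2.22, 1.44, 1.72, 2.26 and 2.04 RPKM in knockout striatum, and 4.06, 2.87, 9.34, 3.06 and 4.26 RPKM in knockout hippocampus. In wild type it had 2.66, 3.00, 2.75, 6.37 and 2.12 RPKM in striatum, and 1.45, 2.52, 1.19, 2.24 and 1.49 RPKM in hippocampus. Its difference was -0.87 in the knockout and 0.61 in wild type (interaction -1.48, unadjusted p = 0.000333, adjusted p = 0.797, limma). Hippocampal knockout library 8 and striatal wild-type library 4 were the highest in their groups. Phkg2, a phosphorylase kinase subunit, had 7.08 to 7.61 RPKM in knockout striatum and 7.63 to 8.33 RPKM in knockout hippocampus, against 7.77 to 8.35 RPKM in wild-type striatum and 6.78 to 7.38 RPKM in wild-type hippocampus. The sulfate transporter Slc13a4 had at most 0.0769 RPKM in knockout striatum and 1.35 to 3.52 RPKM in knockout hippocampus, against 0.0317 to 0.941 RPKM in wild-type striatum and 0.163 to 1.15 RPKM in wild-type hippocampus. The next were Pcdhb4, Gm16440, Kcnj13, Mir665, Adamtsl4, Crtc2 and Tpcn2, each with the same adjusted p of 0.797 (limma).

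Genes strongly called in 1 genotype and not called in the other were few. Toward hippocampus most of them were called in both genotypes once a single library was left out, and toward striatum few were. Toward hippocampus, 42 genes were strongly called in the knockout and not called in wild type. In 37 of them the wild-type call appeared once striatal wild-type library 4 was left out. Over all genes tested, wild-type calls toward hippocampus numbered 4317 without that library, against 3471 with it. That library had summed meningeal markers of 207 RPKM, against 25.1 to 56.6 RPKM in the other wild-type striatal libraries. Dcn was an example, with 0.46, 2.58, 0.3, 40.4 and 0.316 RPKM in wild-type striatum and 9.71 to 19.2 RPKM in wild-type hippocampus. Slc17a7 was another, at 64.4 RPKM in striatal wild-type library 4 and 2.45 to 7.12 RPKM in the others. Col1a2, Serpinf1 and Gjb6 completed the 5 largest. Over the 11 meningeal markers tested in wild type, 6 were called toward hippocampus with all libraries, with a median of -1.41, and 9 without library 4, with a median of -1.999. The reverse set, strongly called toward hippocampus in wild type and not called in the knockout, held 16 genes, and 13 were called in the knockout without hippocampal library 8. Over all genes tested, knockout calls toward hippocampus numbered 3390 without that library, against 2308 with it. St18, a zinc finger factor, had 2.61 to 5.46 RPKM in knockout striatum and 2.77 RPKM in hippocampal knockout library 8, against 9.68 to 13.8 RPKM in the other hippocampal knockout libraries. Dpf3, Cep85l and Kctd16 were likewise lowest in library 8 within hippocampus.

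Toward striatum, 4 genes were strongly called in the knockout and not called in wild type: Cyp26b1, Gabrg1, Snhg11 and Zdbf2. Of these 4, 1 was called in wild type without striatal wild-type library 4. Over all genes tested, wild-type calls toward striatum numbered 3847 without that library, against 3120 with it. The call of Snhg11, a small nucleolar RNA host gene, was lost when hippocampal library 7, 8 or 10 or striatal library 6, 8 or 9 was left out, at adjusted p-values of 0.0518 to 0.0702 (limma). With libraries paired by replicate number Zdbf2 was not called (0.94, adjusted p = 0.0639, limma), and neither was Cyp26b1 (1.205, adjusted p = 0.0995, limma). Without pairing, Cyp26b1, which degrades retinoic acid, had 28.1, 9.53, 13.5, 19.5 and 7.80 RPKM in knockout striatum, and 4.19, 5.97, 2.01, 4.52 and 7.40 RPKM in knockout hippocampus (difference 1.46, adjusted p = 0.00885, limma). In wild type its striatal libraries spread from 0.357 to 25.6 RPKM, around 6.14 to 9.58 RPKM in hippocampus. The interaction was 1.99 (unadjusted p = 0.0153, adjusted p = 0.797, limma). In wild type 22 genes were strongly called toward striatum without a call in the knockout, and 2 of them were called in the knockout without hippocampal library 8. Over all genes tested, knockout calls toward striatum numbered 3015 without that library, against 1939 with it. Copies of the 5S ribosomal RNA, which share reads and are uncertain, made up 7 of the 22. One copy, n-R5s108, had 156 RPKM in hippocampal knockout library 7, against 0 to 7.05 RPKM in the other hippocampal knockout libraries. The mitochondrial ribosomal RNA mt-Rnr2 was also highest there, at 6169 RPKM, against 529 to 864 RPKM in the other hippocampal knockout libraries.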

How the data were processed

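Poly(A) RNA libraries, prepared with a stranded TruSeq kit per the labels' protocols, were sequenced from striatum and hippocampus. RPKM values per gene were deposited by the authors in 1 table. The submitters' processing notes name BWA 0.7.4, cutadapt 1.3, SAMtools, HTSeq, featureCounts and DESeq2 and the build mm10, without the role of each.

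In 51.1% of the deposited values the decimal mark was lost. It was restored for 27179 genes by requiring that each gene's values be whole multiples of what 1 read is worth, within 0.0001 of a read. Where more than 1 place met this, the choice favoured values near the median of the libraries of the same tissue. It also favoured a gene length near the annotated one. Restored values may therefore be drawn toward the median of their own tissue. In data simulated around the tissue medians 99.972% of lost marks came back right. The simulation took only genes whose scale was sure, with a modest spread among libraries of a tissue. It therefore did not test genes that vary by a large multiple within a tissue, such as Emx1, Cck and Slc17a7 in striatum. Genes with an unsure mark were left out of the fits, 446 in the knockout and 252 in wild type. Recovered reads per library numbered 16730843 to 36880080, and deeper libraries measure low genes with less error. Symbols and promoter windows came from RefSeq, GRCm38.p6, and 25275 genes had a symbol.

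Genes with at least 0.5 RPKM in at least 5 libraries of a comparison were tested with limma 3.58.1 in R 4.3.3 (trend, robust) on log2(RPKM + 1), with Benjamini-Hochberg adjustment over all genes tested. The fits used the 10 knockout libraries, the 10 wild-type libraries, or all 20 for the interaction, and were tested on simulated data. The correlation of deviations was over 0.1 in every same-number pair of wild type and not in every one of the knockout. It does not decide whether the replicate numbers pair the knockout libraries. The main fits of both genotypes used no pairing. Pairing by replicate number, other pseudocounts, filters and scalings, a length correction and left-out libraries were alternatives.

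Named genes were the 15 of largest difference each way whose groups did not overlap, the first members of each list and members called against their list, the 10 smallest interaction p-values, the Ikaros family and the 5 largest differences called in 1 genotype. Other list members, and Dclk3, were named after their values were seen. The members and lists were chosen with earlier results of these data known. The authors' tables of knockout against wild type were not used here. Some genes that the rule names are not reported here.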

Additional observations from a re-analysis of the deposited data

Results flagged for a closer look

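Of 38 sets of 5 libraries tested for a single distant library (gap over range above 0.71), 4 had one, and chance gives about 1 in 20. Hippocampal knockout library 8 had a mean log2 level of 2.554 for the transcription factors of spiny projection neurons, against 2.914 to 2.993 in the other hippocampal knockout libraries. The same library had a mean log2 level of 4.02 for meningeal fibroblast markers, against 3.126 to 3.295 in the others. Ikzf5 had 4.343 RPKM in library 8, against 9.307 to 10.45 RPKM in the others. Library 8 is the one whose values depended on gene length, and the part of that dependence in these values was not tested. The mitochondrial ribosomal RNA mt-Rnr2 had 6169 RPKM in hippocampal knockout library 7, against 529 to 863.6 RPKM in the other hippocampal knockout libraries.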

How the results depend on the processing

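Called genes between knockout tissues numbered 4247. The data did not decide whether the replicate numbers pair the knockout libraries. The 4 same-number knockout pairs correlated at -0.173 to 0.235 in their deviations from the group means, and pairs of unlike number at -0.551 to 0.347. The lowest same-number value was that of the pair with hippocampal library 8, whose values depended on gene length. In wild type the 4 same-number pairs correlated at 0.114 to 0.167, and the block gave 4874 calls, against 6591 without it. With the replicate number as a replicate block 2387 genes were called, and 2379 with the block and without codes beginning with 7. The 8 same-number pairs of both genotypes matched in Y-linked genes in 8 of 8, and 6 of 8 hippocampal libraries correlated best with their own number, a hint from the data and not the design. Those that did not were knockout libraries. Hippocampal library 7 correlated best with striatal library 8 (0.2, against 0.069 with its own number). Hippocampal library 8 did so with striatal library 10 (0.347, against -0.173). Leaving out 1 library in turn gave 3424 calls (without striatal library 6) to 6405 (without hippocampal library 8). Strong calls toward striatum, 420, numbered 700 with a pseudocount of 0.1 and 733 with limma voom, and those toward hippocampus, 462, numbered 796 and 846. Each alternative called 836 to 882 of the 882 strongly called genes, and no named gene reversed. Of 144 named genes called, 0 to 27 per alternative lost the call, 27 of them under the block, among them Cyp26b1 (1.205, adjusted p = 0.0995, limma) and Zdbf2 (0.94, adjusted p = 0.0639, limma). Cck lost it without hippocampal libraries 5 and 8 (-2.93, adjusted p = 0.06004, limma), an alternative chosen after seeing the data, as was leaving out striatal library 6 with its pallial genes. The interaction gave 0 calls in every alternative. The median over all genes moved by less than 0.1 throughout. The causes of these changes were not tested. Depth limits low genes most in hippocampal knockout library 8, which had the fewest reads.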
